A study of Mus musculus with 24 samples.

Results

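The genes described here are 39 genes of DNA replication and S phase, the part of the cell cycle in which a cell copies its genome. They were taken by symbol from a list of names, not by a rule on their values, and all 39 were found among the 16118 protein-coding genes of the deposited table. The list was chosen with earlier results of these data known. All 39 also passed the filter on low values, so none is missing from the 16005 genes tested. They lie on 14 chromosomes, with at most 7 on any of them, which is chromosome 5. Their levels were measured by sequencing poly(A) RNA from inguinal white adipose tissue, the subcutaneous fat depot of the groin, of 24 mice. Each mouse gave a single library, and the labels place 4 males and 4 females in each of 3 conditions. The p21 animals were taken at postnatal day 21. Standard weaning (SW) animals were taken from the mother at day 21 and examined at day 28, and delayed weaning (DW) animals of the same age had stayed with her. The labels name no genotype, strain, diet or treatment besides weaning, and no litter. The titles of the p21 libraries give the age as p28 with standard weaning. Their age labels and library names give p21, and these were followed. The title of 1 p21 female carries another animal number than its ID label. DW animals were compared with SW animals at p28 within each sex and as the mean of both sexes, p28 animals with p21 animals, and females with males. Since litters are not given, p-values measure the spread between these animals only.

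Replication starts with licensing: the origin recognition complex (Orc1, Orc6), Cdc6 and Cdt1 load the ring of Mcm2 to Mcm7 onto DNA. Mcm10, Cdc45 and the GINS complex turn this ring into an active helicase, and primase with polymerase alpha lays down primers that polymerases delta and epsilon extend. The sliding clamp Pcna, loaded by the Rfc complex, holds the polymerases on DNA. Fen1 and Lig1 join the fragments, Rrm1, Rrm2, Tyms and Tk1 supply nucleotides, and Chaf1a, Chaf1b and Uhrf1 restore chromatin and DNA methylation behind the fork. E2f1 is a transcription factor of S phase entry, and Clspn is a checkpoint mediator at the fork. In fat tissue, replication accompanies the division of progenitors, immune and vascular cells, since mature adipocytes rarely divide. In whole tissue, a change in the number of such cells and a change in RNA per cell cannot be told apart.

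Values are normalised read counts, that is, reads per gene divided by a single factor for each sample. They are not per length, so they are compared between animals and not between genes. A change is a difference on the log2(value + 1) scale, and a gene was called at an adjusted p under 0.05 by limma, a linear model fitted to all genes and all 24 animals, with Benjamini-Hochberg adjustment over all 16005 genes. Where 4 values follow each other, they are the 4 animals of a group in the order of their numbers, which are 37, 38, 53 and 54 for p21 males, 78, 84, 85 and 124 for SW males, 79, 80, 86 and 87 for DW males, 30, 36, 55 and 56 for p21 females, 73, 74, 75 and 81 for SW females and 76, 77, 82 and 83 for DW females.

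The libraries held 57600711 to 302145813 reads on all genes of the table. P21 male 53 and SW male 84 had the fewest genes with a read, 14054 and 15497 against 15859 to 16066 elsewhere. In p21 male 53 Gins1 rested on 5 reads, and the next lowest read number of any member in any library was 33, for Orc1 in SW male 84. DW females 82 and 83 stood apart from DW females 76 and 77. Of all genes tested, 33.7% were higher in both 82 and 83 than in both others and 39.4% were lower, against 22.9% and 22% for the matching split of DW males 86 and 87 from 79 and 80. Among the members, 20 of 39 were higher in both 82 and 83, and 7 were lower in both. Adipocyte markers were high in every library, with a summed value of 10 genes from 18835 to 32233.

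At p28 the members were lowest on average after standard weaning, in both sexes. The mean log2 level over the 39 genes was 3.62 ± 0.127 in p21 males, 3.18 ± 0.125 in SW males and 3.48 ± 0.070 in DW males (SD, n = 4 each). In females it was 3.67 ± 0.134 at p21, 3.33 ± 0.080 after standard weaning and 3.60 ± 0.192 after delayed weaning. Single animals ranged from 2.99 in SW male 84 to 3.88 in DW female 82. The members took a mean of 0.0728% of all reads in p21 males and 0.0437% in SW males, which were the highest and lowest of the 6 groups.

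**Figure D1:**
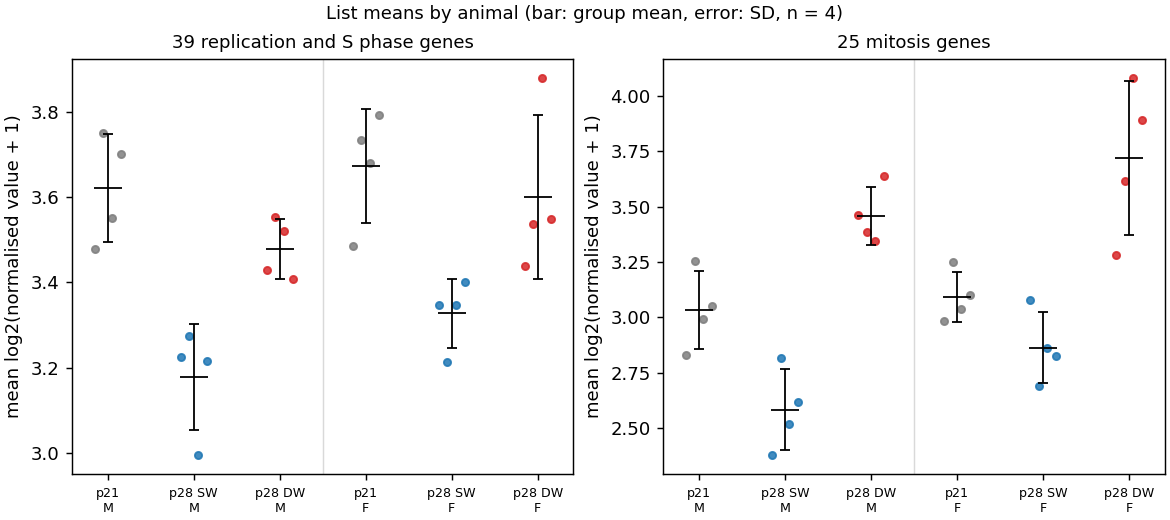
Mean log2(normalised value + 1) per animal over the 39 replication and S phase genes and over 25 mitosis genes, by group; points are animals, bars are group means and error bars are SD (n = 4). The replication genes stand at 3.18 in SW males and 3.33 in SW females, below the p21 and DW means, whereas the mitosis genes are higher in DW animals (3.46 in males, 3.72 in females) than at p21 (3.03 and 3.09).

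Delayed against standard weaning addresses whether staying with the mother alters the tissue at a fixed age. In the mean of both sexes 9 of the 39 members were higher in DW animals and 0 were lower. Called genes made up 2.21% of all genes tested in this comparison, and genes called higher made up 1.19%. The 9 were Rrm2, Rrm1, Tk1, Pola1, Clspn, Pole, Lig1, Mcm6 and Prim1. The median change of all 39 members was 0.28, against -0.01 over all genes, and 36 of the 39 changes were positive. Without DW females 82 and 83, 5 members were called: Rrm2, Rrm1, Tk1, Clspn and Lig1. Without DW female 76, 15 were called. Without DW male 80 or without SW male 84, 6 were called. Within a single sex, limma called 0 members. In males 18 members had an unadjusted p under 0.05, edgeR called 0 and DESeq2 called 4 (Uhrf1, Rrm1, Clspn and Lig1). At the adjusted threshold limma called 0.256% of all genes in males (0.231% higher). In females 13 members had an unadjusted p under 0.05, edgeR called 1 and DESeq2 called 5. At the adjusted threshold limma called 1.27% of all genes in females (0.462% higher). Over all genes edgeR called 29 in males and 71 in females. No such count is given here for DESeq2, for an unadjusted p under 0.05 or for the fits without an animal. The member counts under these are therefore not set against a matching share of all genes. In females 11 members were called without DW female 76 and 4 without DW female 77, and in males 4 were called without DW females 82 and 83 and 1 without SW male 78. The median change of the members was 0.31 in males and 0.30 in females, against 0.00 and -0.02 over all genes. The change was positive in both sexes for 30 members, negative in both for Gins4, Pola2 and Rfc2, and of opposite sign for Cdt1, Chaf1a, Orc6, Pold1, Rfc1 and Rfc4.

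**Figure D2:**
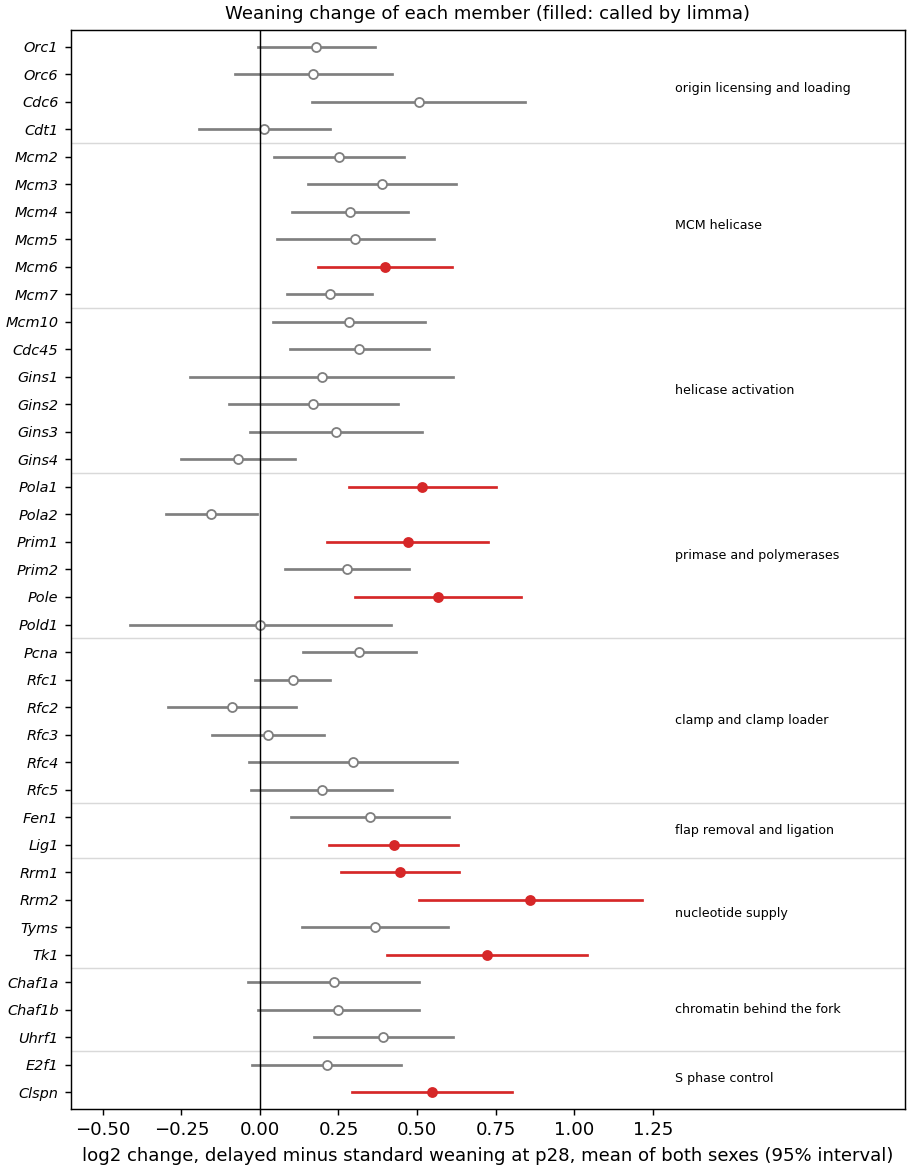
Log2 change of each of the 39 members between delayed and standard weaning at p28 (mean of both sexes), with 95% intervals, grouped by role; filled points are the 9 members called by limma. Rrm2 has the highest change at 0.86 and Pola2 the lowest at -0.15, and 36 of 39 points lie above 0.

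The 9 called members fall under 5 of the 9 roles into which the genes were sorted. Nucleotide supply had 3 of 4 members called and a median change of 0.58 in the mean of both sexes. Primase and polymerases had 3 of 6 called, with a median of 0.37, and the MCM ring had 1 of 6, with a median of 0.29. Flap removal and ligation had 1 of 2 called (median 0.39), as did S phase control (median 0.38). None was called in origin licensing (4 members, median 0.17), helicase activation (6, median 0.22), clamp and clamp loader (6, median 0.15) or chromatin behind the fork (3, median 0.25). The spread over roles depended on the DW females described above as standing apart from the other DW females. With those animals left out, no primase, polymerase or MCM member was called. The calls in nucleotide supply, flap removal and ligation, and S phase control all remained. The numbers of members with an unadjusted p under 0.05 and the calls of the count-based tests are given above for the whole list within each sex. They are not given there for the mean of both sexes.

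Replication genes share promoter elements, and the called members differ in which of them they carry. In RefSeq's GRCm38.p6 table, 32 of the 39 members had a promoter entry of 300 bases, from 250 before to 50 after the transcription start. An E2F-type element (TTTCCCGC, TTTGGCGC, TTTCGCGC or TTTGCCGC, either strand, overlaps counted) was found in 14 of the 32 members (43.8%), against 4.21% of the 12553 genes with an entry. A CCAAT box (CCAAT, either strand) was found in 20 members (62.5%), against 42.3% of all. A CHR element (TTTGAA or TTCGAA, either strand), known from promoters of mitosis genes, was found in 6 members (18.8%), against 17.1% of all. The 150 bases before the start are shown for 5 called members that differ in these matches, 5′ to 3′ on the gene's own strand. Capitals mark E2F-type elements and CCAAT boxes on either strand. The genes are Mcm6 (chr1:128359706-128359855, minus strand), Pola1 (chrX:93632156-93632305, minus strand), Rrm1 (chr7:102441545-102441694, plus strand), Rrm2 (chr12:24708104-24708253, plus strand) and Tk1 (chr11:117826015-117826164, minus strand).
Mcm6: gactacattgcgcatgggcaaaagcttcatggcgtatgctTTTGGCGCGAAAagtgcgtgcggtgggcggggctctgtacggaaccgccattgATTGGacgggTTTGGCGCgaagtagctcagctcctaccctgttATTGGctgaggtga
Pola1: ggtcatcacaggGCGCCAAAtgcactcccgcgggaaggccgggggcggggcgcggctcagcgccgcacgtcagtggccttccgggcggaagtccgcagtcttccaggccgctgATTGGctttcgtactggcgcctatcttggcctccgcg
Rrm1: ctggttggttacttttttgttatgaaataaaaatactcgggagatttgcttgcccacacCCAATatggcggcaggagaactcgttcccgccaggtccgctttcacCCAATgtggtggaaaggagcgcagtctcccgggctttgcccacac
Rrm2: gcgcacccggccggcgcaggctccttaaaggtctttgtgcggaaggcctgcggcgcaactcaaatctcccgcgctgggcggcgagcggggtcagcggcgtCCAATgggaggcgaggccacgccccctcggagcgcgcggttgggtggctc
Tk1: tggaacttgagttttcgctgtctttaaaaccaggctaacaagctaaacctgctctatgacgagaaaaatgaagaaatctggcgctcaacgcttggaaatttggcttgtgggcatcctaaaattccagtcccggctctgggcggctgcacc
Mcm6 held 3 E2F-type matches, of which 2 overlap in the first run of capitals, and 2 CCAAT boxes read on the opposite strand. Pola1 held 1 of each. Rrm1 held 2 CCAAT boxes and Rrm2 held 1, and neither held an E2F-type match in its whole 300-base window. Tk1 held none of the 3 elements. A match is a description of letters only. In the mean weaning comparison, members called and not called occurred both with and without E2F-type elements and CCAAT boxes.

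The 2 highest changes after delayed weaning, those of Rrm2 and Tk1, were in nucleotide supply. Rrm2, the small and cell-cycle regulated subunit of ribonucleotide reductase, read 6.23, 4.13, 5.42 and 4.61 in SW males and 8.71, 9.05, 10.2 and 9.72 in DW males, and 7.30, 5.36, 7.26 and 6.20 in SW females and 7.20, 9.25, 25.3 and 18.2 in DW females. All 4 DW males were above all SW males, while DW female 76 lay within the SW range and DW females 82 and 83 lay far above it. The mean was 5.10 ± 0.925 in SW males and 9.42 ± 0.666 in DW males (SD, n = 4), a ratio of 1.85, and 6.53 ± 0.930 and 15.0 ± 8.36 in SW and DW females, a ratio of 2.29. Its log2 change was 0.86 (SE 0.171, adjusted p 0.00622) in the mean of both sexes, and 0.94 (SE 0.241, adjusted p 0.0563) in females alone. The value was 0.54 in the mean of both sexes and 0.29 in females without DW females 82 and 83, and Rrm2 was still called in the mean.

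Rrm1, the large subunit of the same enzyme, read 26.6, 22.8, 24.7 and 25.2 in SW males and 33.4, 33.8, 37.6 and 36.8 in DW males, and 32.6, 28.8, 28.4 and 26.0 in SW females and 29.8, 34.4, 50.5 and 41.5 in DW females. DW males did not overlap SW males, and DW females 77, 82 and 83 were above every SW female. The change was 0.45 (SE 0.0899, adjusted p 0.00691) in the mean of both sexes and 0.50 (SE 0.127, adjusted p 0.146) in males. Tk1, the thymidine kinase of the salvage pathway, read 3.25, 3.35, 3.57 and 3.69 in SW males and 6.20, 7.55, 5.39 and 5.89 in DW males, and 4.42, 3.10, 4.60 and 5.57 in SW females and 6.22, 7.81, 12.8 and 6.44 in DW females. It was 1 of only 2 members, with Pole, whose DW animals were all above all SW animals in both sexes, a pattern held by 0.862% of all genes. The change was 0.72 (SE 0.153, adjusted p 0.0105) in the mean of both sexes and 0.75 (SE 0.216, adjusted p 0.0929) in females, and Tk1 was no longer called with marker scores as covariates. Tyms, thymidylate synthase, had a change of 0.37 (SE 0.112, adjusted p 0.0915) and was not called.

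Among the enzymes that make the new strand, Pola1, the catalytic subunit of polymerase alpha, read 9.58, 9.07, 9.79 and 8.53 in SW males and 12.3, 13.5, 13.3 and 16.7 in DW males, and 11.9, 10.1, 8.97 and 9.94 in SW females and 11.4, 13.7, 16.9 and 17.9 in DW females. The male groups did not overlap, and in females DW animal 76 at 11.4 lay below SW animal 73 at 11.9. The change was 0.52 (SE 0.113, adjusted p 0.013) in the mean of both sexes. Pole, the catalytic subunit of the leading-strand polymerase epsilon, read 6.83, 5.43, 6.52 and 7.09 in SW males and 9.48, 10.3, 10.9 and 11.2 in DW males, and 8.10, 5.46, 7.50 and 7.54 in SW females and 8.76, 9.09, 14.1 and 10.8 in DW females. Its DW and SW animals did not overlap in either sex, and its change was 0.57 (SE 0.127, adjusted p 0.0164). Without DW females 82 and 83 neither Pola1 nor Pole was called. Prim1, the catalytic subunit of primase, read 5.31, 4.35, 5.52 and 4.68 in SW males and 6.16, 6.40, 6.93 and 6.04 in DW males, and 6.59, 4.94, 5.94 and 5.11 in SW females and 6.43, 7.35, 13.6 and 11.1 in DW females. Its male groups did not overlap, DW female 76 lay inside the SW range, and the change was 0.47 (SE 0.124, adjusted p 0.0464) in the mean of both sexes and 0.63 (SE 0.175, adjusted p 0.0774) in females. Without DW females 82 and 83 these values were 0.28 and 0.25, and Prim1 was called in 9 of 27 alternative settings. Its partner Prim2 had a change of 0.28 and was not called.

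Pola2 and Pold1 were not called. Pola2, the accessory subunit of polymerase alpha, read 28.0, 28.1, 29.1 and 26.3 in SW males and 25.1, 25.7, 25.9 and 23.4 in DW males, and 21.4, 24.3, 24.8 and 26.9 in SW females and 25.4, 23.4, 19.7 and 18.7 in DW females. In males all 4 DW animals were below all 4 SW animals, the only member with that order, and its change was -0.15 (SE 0.0700, adjusted p 0.264) in the mean of both sexes. Groups without overlap in this direction were found in 3.40% of all genes. Pold1, the catalytic subunit of the lagging-strand polymerase delta, read 7.92, 6.13, 7.95 and 12.4 in SW males and 8.78, 11.8, 9.69 and 7.73 in DW males, and 6.79, 6.96, 11.5 and 11.4 in SW females and 11.1, 11.3, 7.50 and 3.98 in DW females. Its animals varied widely within every group, and its change of 0.00 had a 95% interval from -0.41 to 0.42, the largest p of the 39 members. Its change was 0.23 without DW females 82 and 83, again not called.

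At the joining of fragments, Lig1, DNA ligase 1, read 12.0, 8.64, 12.4 and 12.3 in SW males and 17.4, 18.9, 18.8 and 17.0 in DW males, and 13.4, 14.8, 14.0 and 15.0 in SW females and 17.3, 19.0, 17.0 and 14.2 in DW females. Male groups did not overlap, and in females 3 of 4 DW animals were above every SW animal while DW female 83 was within the SW range. The change was 0.42 (SE 0.0985, adjusted p 0.021) in the mean of both sexes and 0.63 (SE 0.139, adjusted p 0.0562) in males. Lig1 was no longer called without DW male 80 or without SW male 84, whose 8.64 was the lowest of the 24 animals. Fen1, the flap endonuclease, had a change of 0.35 (SE 0.121, adjusted p 0.140).

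All 6 subunits of the MCM ring had a positive change in both sexes, and only Mcm6 was called. Mcm6 read 23.6, 17.9, 19.8 and 21.2 in SW males and 27.6, 27.7, 30.2 and 24.4 in DW males, and 30.2, 21.2, 26.6 and 23.4 in SW females and 27.2, 28.9, 43.2 and 36.5 in DW females. The male groups did not overlap, whereas DW females 76 and 77 lay within the SW range. Its change was 0.40 (SE 0.103, adjusted p 0.0423), and it was called in 11 of 27 alternative settings. The other subunits ranged from 0.22 for Mcm7 to 0.39 for Mcm3 in the mean of both sexes. Of the helicase activators, Cdc45 was at 0.32, Mcm10 at 0.28 and Gins4 at -0.07, and none was called. Of the licensing factors, Cdc6 had the highest change at 0.50 (SE 0.163, adjusted p 0.114), and Cdt1, which the cell removes by protein degradation in S phase, was at 0.01.

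For S phase control, Clspn, the adaptor that carries the checkpoint signal from stalled forks, read 6.76, 4.40, 5.79 and 5.15 in SW males and 9.39, 9.77, 10.3 and 11.6 in DW males, and 8.29, 6.01, 6.35 and 7.26 in SW females and 8.08, 10.3, 9.88 and 7.11 in DW females. DW males were all above SW males, and the female groups overlapped. The change was 0.55 (SE 0.123, adjusted p 0.0164) in the mean of both sexes, 0.80 (SE 0.173, adjusted p 0.0528) in males and 0.30 in females. E2f1 was not called, with a change of 0.21 (SE 0.115, adjusted p 0.341). Uhrf1, which brings the maintenance DNA methyltransferase to newly copied DNA, read 15.2, 8.36, 11.7 and 12.3 in SW males and 17.3, 19.2, 18.7 and 15.8 in DW males, and 16.2, 15.4, 16.0 and 16.8 in SW females and 18.5, 21.8, 20.2 and 15.6 in DW females. Its male groups did not overlap, its female groups did, and it missed the threshold with 0.39 (SE 0.106, adjusted p 0.054) in the mean of both sexes and 0.57 (SE 0.150, adjusted p 0.173) in males. Pcna, the sliding clamp, read 39.8, 29.5, 37.0 and 43.2 in SW males and 42.6, 46.0, 43.8 and 40.7 in DW males, and 41.2, 37.5, 43.2 and 42.0 in SW females and 44.9, 46.8, 70.4 and 61.3 in DW females. Here the female groups did not overlap and the male groups did, with 0.32 (SE 0.0867, adjusted p 0.0566) in the mean of both sexes and 0.42 (SE 0.123, adjusted p 0.101) in females. Both values were lower without DW females 82 and 83, at 0.19 and 0.16. Among the Rfc subunits that load the clamp, changes ran from -0.09 for Rfc2 to 0.30 for Rfc4. The high female values of Rfc4 were those of DW females 82 and 83, with 2.47, 2.63, 9.25 and 6.89 against 2.69, 2.28, 2.89 and 2.51 in SW females, and without these animals the Rfc4 change was -0.04.

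**Figure D3:**
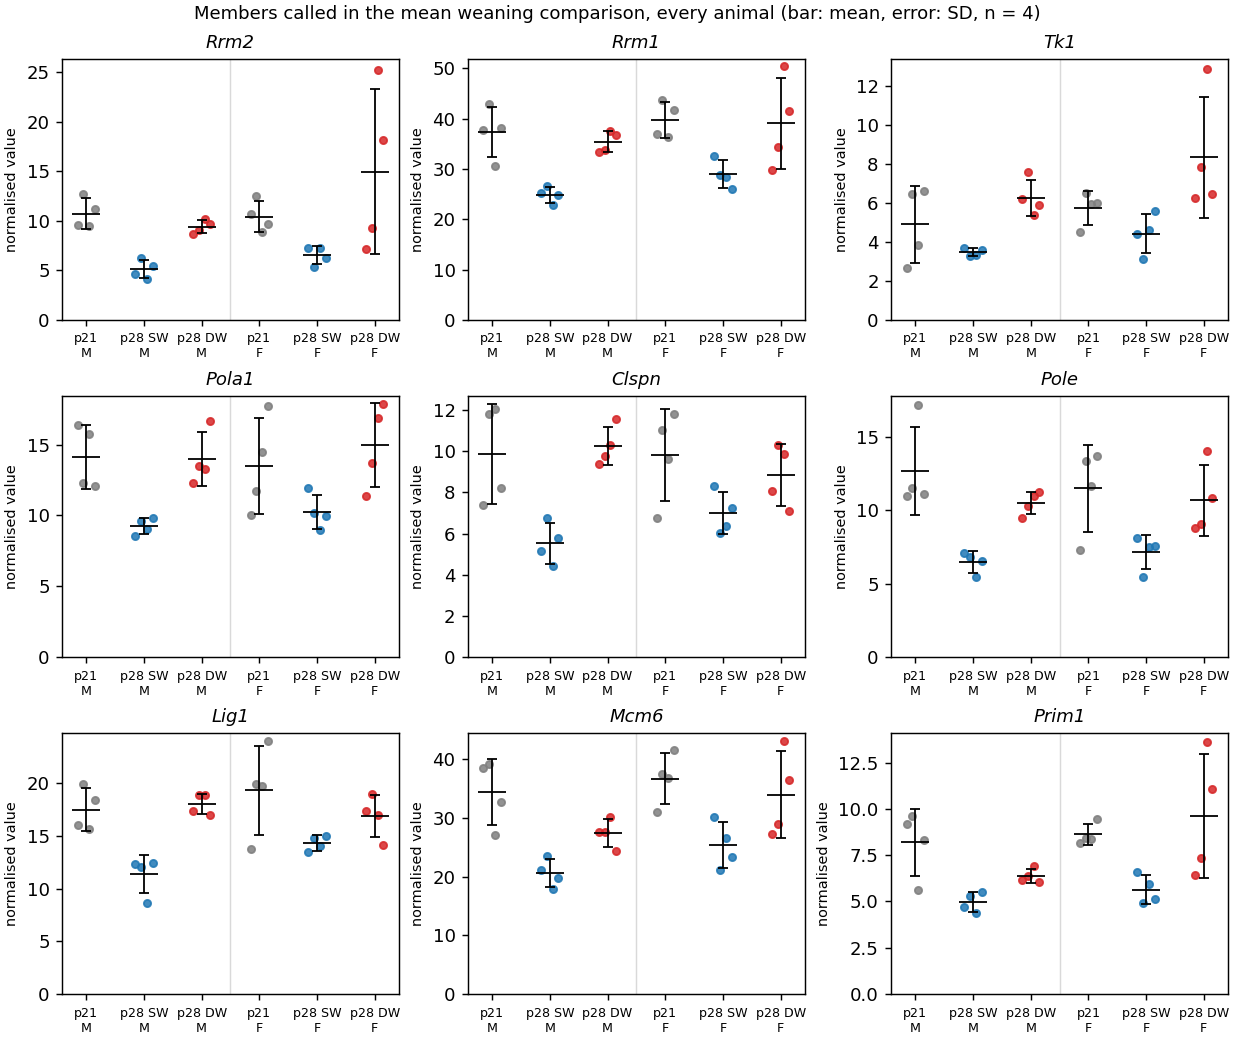
Normalised value in every animal for the 9 members called in the mean weaning comparison; points are animals, bars are group means and error bars are SD (n = 4). In males the 4 DW points lie above the 4 SW points for all 9 genes, and in females this holds for Pole and Tk1.

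Counting members whose DW and SW animals do not overlap, 19 of 39 were higher in DW males, beside 5.34% of all genes. In females 4 of 39 were higher (Mcm7, Pole, Pcna and Tk1), beside 2.27% of all genes, and 0 of 39 were lower, beside 3.52%. The animal numbers fall into runs, 73 to 80 and 81 to 87, with SW male 124 apart, and the labels do not say what a run stands for. Within the run from 73 to 80 the DW mean was higher for 31 of 39 members in males (2 DW against 1 SW animal) and for 34 in females (2 against 3). Within the run from 81 to 87 it was higher for 35 members in males (2 against 2) and for 27 in females (2 against 1). Of all genes tested, the DW mean was higher for 51.1% in males and 49.3% in females in the run from 73 to 80, and for 53.6% and 44.9% in the run from 81 to 87.

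From p21 to p28 under standard weaning, 20 of 39 members fell in males and 0 rose. Genes called lower made up 4.97% of all genes in this comparison. All 6 MCM subunits fell, as did Rrm1, Rrm2 and Tyms, Pola1, Pole, Prim1 and Prim2, Pcna, Lig1, Uhrf1, Chaf1b, Clspn, Cdc45 and Orc1. The median change of the members was -0.44, against 0.01 over all genes, and 38 of 39 changes were negative, E2f1 being the exception at 0.07. Uhrf1 read 21.3, 32.4, 21.8 and 30.0 in p21 males and 15.2, 8.36, 11.7 and 12.3 in SW males. The groups did not overlap, and the change was -1.09 (SE 0.150, adjusted p 0.000105). Tyms read 8.84, 10.4, 12.8 and 9.12 in p21 males and 6.38, 3.70, 4.81 and 4.66 in SW males. Its change was -0.95 (SE 0.158, adjusted p 0.000626), again with no overlap. Mcm2 read 15.1, 17.9, 20.3 and 20.2 in p21 males and 10.7, 8.79, 10.3 and 12.3 in SW males, changing by -0.75 (SE 0.141, adjusted p 0.00174). Mcm6 read 38.5, 39.1, 27.2 and 32.6 in p21 males and 23.6, 17.9, 19.8 and 21.2 in SW males, changing by -0.70 (SE 0.146, adjusted p 0.00351). Neither of these MCM subunits overlapped between the groups. Without p21 male 53, SW male 84 and p21 female 36, 10 members were called, and with marker scores as covariates 6 were called. The count was 22 without DW females 82 and 83, which held all 20 and added Rfc4 and Mcm10.

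In females under standard weaning 9 members fell and 0 rose: Mcm2, Mcm3, Mcm6, Mcm7, Pole, Prim1, Prim2, Rrm1 and Uhrf1, all of which were also called in males. Genes called lower made up 4.23% of all genes, and the median change of the members was -0.36, against 0.01 over all genes. Mcm7 read 35.5, 37.8, 34.9 and 37.0 in p21 females and 24.1, 22.3, 25.0 and 26.4 in SW females, changing by -0.55 (SE 0.0919, adjusted p 0.000293). Uhrf1 read 25.3, 29.8, 29.4 and 32.1 in p21 females and 16.2, 15.4, 16.0 and 16.8 in SW females, changing by -0.81 (SE 0.150, adjusted p 0.00083). In both genes the lowest p21 female was well above the highest SW female. Prim2, the regulatory subunit of primase, read 7.77, 7.86, 7.25 and 7.65 in p21 females and 5.97, 4.01, 5.64 and 4.92 in SW females, changing by -0.50 (SE 0.134, adjusted p 0.0151). Mcm6 read 31.0, 37.4, 36.8 and 41.6 in p21 females and 30.2, 21.2, 26.6 and 23.4 in SW females, changing by -0.52 (SE 0.146, adjusted p 0.0199). These groups did not overlap either, although p21 female 30 and SW female 73 were close for Mcm6. Leaving out any single animal of these groups other than p21 female 30 or SW female 73 lowered the count to between 2 (without SW female 74) and 5 (without p21 female 55), and 2 were called with marker scores as covariates. Leaving out DW females 82 and 83, which enter only through the shared estimate of the spread, gave 16 called.

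Under standard weaning 19 members passed in neither sex. They included Cdt1, Fen1, E2f1, Tk1, Pold1, all 4 GINS subunits and all 5 Rfc subunits. Groups without overlap, with p28 below p21, were found for 22 members in males (beside 7.69% of all genes) and for 16 in females (beside 10.1%). In both sexes this held for 12 members, beside 3.49% of all genes. Rrm2 in males went from 9.56, 12.7, 9.48 and 11.2 at p21 to the SW values given above, a change of -0.95 (SE 0.241, adjusted p 0.0138), and Pole from 11.0, 11.5, 17.2 and 11.1, a change of -0.86 (SE 0.180, adjusted p 0.00389).

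Under delayed weaning 3 members were called in males and 2 in females, close to the shares of all genes called lower given below. The DW and SW comparisons use the same p21 animals, so they are set side by side and not counted as separate evidence. In males all 3 fell, beside 6.10% of all genes called lower, and the median change was -0.17. They were Tyms at -0.64 (SE 0.158, adjusted p 0.00975), Uhrf1 at -0.53 (SE 0.150, adjusted p 0.0225) and Mcm2 at -0.43 (SE 0.141, adjusted p 0.0435). Tyms read 6.62, 6.38, 6.22 and 5.51 in DW males, all below the lowest p21 male at 8.84. Uhrf1 in DW males, at 17.3, 19.2, 18.7 and 15.8, was also below every p21 male. Mcm2 in DW males, at 12.2, 15.6, 14.4 and 11.3, overlapped p21 males at 15.6 against 15.1. In females both fell, beside 6.16% of all genes called lower, and the median change was -0.11. They were Uhrf1 at -0.59 (SE 0.150, adjusted p 0.0124) and Pola2 at -0.37 (SE 0.0989, adjusted p 0.0162). Uhrf1 read 18.5, 21.8, 20.2 and 15.6 in DW females against a lowest value of 25.3 at p21. Pola2 read 25.5, 30.4, 29.6 and 28.2 in p21 females and 25.4, 23.4, 19.7 and 18.7 in DW females, which did not overlap, the nearest animals being at 25.5 and 25.4. With all 24 animals limma called 0 members higher over this week in either sex. Without p21 male 38, Tyms and E2f1 were called in males, and E2f1 was higher, with a change of 0.50 (adjusted p 0.0374) against 0.35 with all animals. Groups without overlap and with p28 lower were found for 6 members in DW males (beside 10.7% of all genes). They were found for 3 in DW females (beside 7.61%), close to the share of all genes. The count of members called in males was 5 without p21 male 37 and 1 without p21 male 54, DW male 79 or DW male 87. The count of members called in females was 1 without p21 female 36, 0 without DW female 83 and 0 when only the 2 groups compared entered the fit. With all animals Uhrf1 was the only member called in both sexes under delayed weaning, and the only one without overlap in both. As a share of the members this is close to the 2.52% of all genes with that pattern. Without DW females 82 and 83 neither Uhrf1 nor Pola2 was called in females, with changes of -0.51 and -0.21, and Rfc4 and Mcm7 were called lower instead, with changes of -0.46 and -0.39. In males Rfc4 was then called beside the other 3.

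Side by side, the changes of Mcm6 over the week were -0.70 in SW males and -0.30 in DW males, and -0.52 in SW females and -0.13 in DW females. Those of Rrm1 were -0.56 and -0.07 in males and -0.44 and -0.05 in females. Those of Pole were -0.86 and -0.23 in males and -0.59 and -0.08 in females. The DW female changes were -0.37 for Mcm6, -0.30 for Rrm1 and -0.30 for Pole without animals 82 and 83. For Rrm1 and Pole the SW changes passed the test in both sexes and the DW changes in neither. The difference between the SW and DW changes is the weaning comparison itself, in which both genes were called in the mean of both sexes, Pole only with DW females 82 and 83 included. For Tk1 the change was -0.33 in SW males and 0.36 in DW males, and -0.32 and 0.43 in females, none of which passed the test. The DW female change of Tk1 was 0.25 without animals 82 and 83. Tk1 read 2.65, 6.43, 3.85 and 6.60 in p21 males and 4.51, 6.48, 5.96 and 5.97 in p21 females, so p21 males ranged from 2.65 to 6.60 and overlapped both p28 groups of males.

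**Figure D4:**
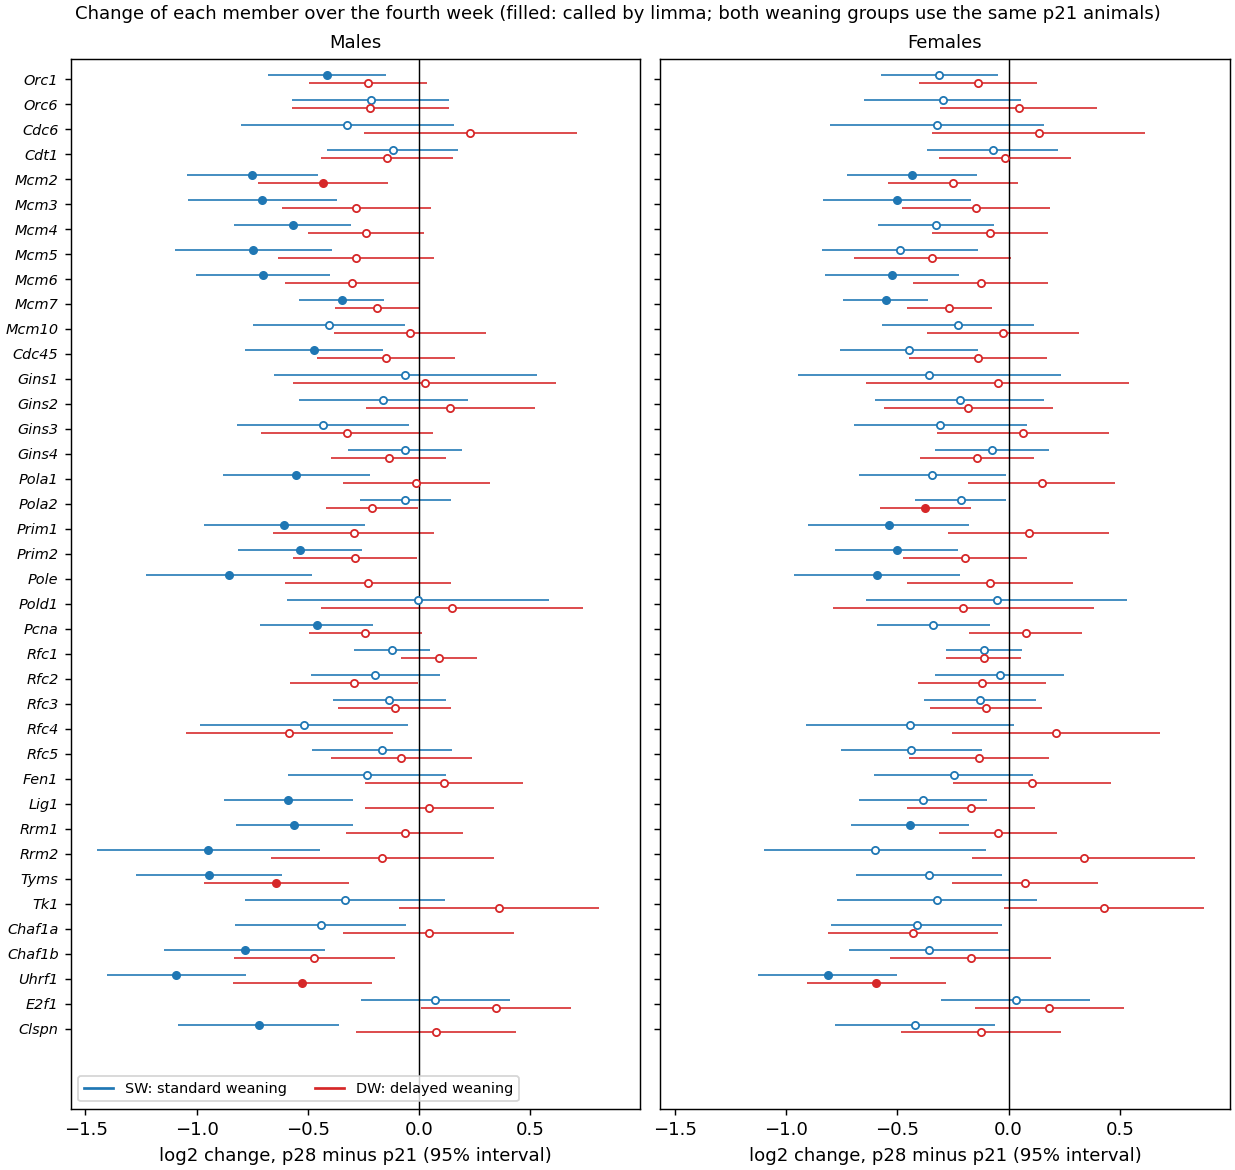
Log2 change of each member from p21 to p28 with 95% intervals, males in the left panel and females in the right, under standard and delayed weaning; filled points were called by limma, and both weaning groups share the p21 animals. Under standard weaning 20 members in males and 9 in females are filled, all below 0, and under delayed weaning 3 and 2.

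No member passed limma's test between females and males. The shares of all genes in this paragraph are at limma's adjusted threshold, and none is given for an unadjusted p under 0.05. At p21 0 members were called, with 0 at an unadjusted p under 0.05 and 0 by edgeR and DESeq2, beside 0.356% of all genes called by limma. After standard weaning 0 were called (4 at an unadjusted p under 0.05, 0 by edgeR, 0 by DESeq2, and 3.54% of all genes). After delayed weaning limma again called 0, edgeR 1 and DESeq2 3, with 5 at an unadjusted p under 0.05 and 2.46% of all genes called by limma. Without DW female 76 limma called 5 members, and without DW female 77 it called 3. After standard weaning it called 1 without SW male 78. Rfc4 had the lowest p after delayed weaning, with a female minus male change of 0.83 (SE 0.225, adjusted p 0.052), which was 0.16 without DW females 82 and 83. The test of whether the weaning change differs between the sexes called 0 members by limma, edgeR and DESeq2, with 2 at an unadjusted p under 0.05, beside 0.0187% of all genes called by limma. Rfc4 had a difference of 0.72 (SE 0.318, adjusted p 0.802). The change from p21 to p28 differed between the sexes in 0 members under standard weaning (1 at an unadjusted p under 0.05, 0 by edgeR, 0 by DESeq2, 1.03% of all genes). Under delayed weaning it differed in 0 members by limma and edgeR and in 1 by DESeq2 (2 at an unadjusted p under 0.05, 0.0687% of all genes). Tyms had differences of 0.59 (SE 0.223, adjusted p 0.372) and 0.72 (SE 0.223, adjusted p 0.160) in these 2 tests. For Clspn, whose weaning change was 0.80 in males and 0.30 in females, the female minus male difference of -0.50 had a 95% interval from -1.01 to 0.01.

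Genes of mitosis, the step that follows replication, were set beside the members as a list of 25. In the weaning comparison 24 of 25 were higher in DW animals in the mean of both sexes, beside 1.19% of all genes. The median change was 0.88. Within a sex 10 were called higher in males, beside 0.231% of all genes, and 19 in females, beside 0.462%, and 0 were lower in either. The female count was 4 without DW female 82, 6 without DW female 83, 0 without both and 0 when only the 2 groups compared entered the fit. It was 11 without SW female 74, and the male count was 5 without DW male 87 and 20 without DW females 82 and 83. In the mean of both sexes the count was again 24 without DW females 82 and 83. Mki67, a protein of dividing cells that coats mitotic chromosomes, read 57.8, 44.6, 46.5 and 41.2 in SW males and 95.7, 90.6, 92.0 and 128 in DW males, and 71.01, 57.7, 57.5 and 50.7 in SW females and 78.8, 107, 99.5 and 95.5 in DW females. Neither sex showed overlap, and the change was 0.88 (SE 0.0971, adjusted p 3.19e-05). Cdk1, the kinase that drives entry into mitosis, read 4.97, 2.87, 3.65 and 2.66 in SW males and 7.30, 7.65, 6.80 and 8.16 in DW males, and 5.43, 4.27, 4.70 and 5.02 in SW females and 7.48, 8.32, 27.3 and 20.6 in DW females. Neither sex overlapped here either, with DW females 82 and 83 far above the other DW females, and the change was 1.14 (SE 0.196, adjusted p 0.00188), or 0.77 without these animals. The smallest p-values were those of Tpx2 at 0.94 (SE 0.0968, adjusted p 2.73e-05), Mki67, Prc1 at 1.21 (SE 0.134, adjusted p 3.19e-05) and Bub1b at 0.72 (SE 0.0855, adjusted p 8.49e-05), which act at the spindle, the central spindle and the spindle checkpoint. Prc1 read 11.9, 8.68, 9.77 and 5.66 in SW males and 25.6, 20.3, 21.8 and 27.3 in DW males, and 13.4, 11.2, 11.7 and 10.9 in SW females and 19.1, 25.2, 32.5 and 28.7 in DW females, and neither sex overlapped.

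Set against p21, the mitosis genes and the replication genes had medians of opposite sign in DW animals. From p21 to p28 under delayed weaning 8 mitosis genes rose in males (median 0.42), beside 8.86% of all genes called higher, and 16 in females (median 0.65), beside 5.95%, while the median of the 39 members was -0.17 in males and -0.11 in females. Without DW females 82 and 83 the female count of mitosis genes was 3, without either of them 7, without p21 female 30 it was 9 and without p21 female 55 it was 10. The male count was 5 without DW male 79 or DW male 87. Under standard weaning 6 mitosis genes fell in males (median -0.47), beside 4.97% of all genes called lower. The male count was 3 without p21 male 38 or SW male 124 and 13 without DW females 82 and 83. In females 1 fell (median -0.29), close to the 4.23% of all genes called lower. The female count was 0 without any 1 of 6 of the 8 animals (all but p21 female 30 and SW female 73). It was 2 without DW females 82 and 83. Cdk1 read 4.85, 6.70, 9.26 and 4.65 in p21 males and 6.16, 6.26, 5.68 and 6.52 in p21 females, and Mki67 read 57.1, 71.2, 67.6 and 57.9 and 52.1, 72.7, 59.97 and 67.8. The difference between the medians of the lists was not tested.

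A further 44 genes of replication, outside the list of members, had a median weaning change of 0.19. Of these, 0 were called lower in the mean of both sexes and 5 rose, beside 1.19% of all genes called higher. Those with the smallest p-values were Ticrr, which helps load Cdc45, at 0.49 (SE 0.0982, adjusted p 0.0068), the histone chaperone Asf1b at 0.43 (SE 0.0987, adjusted p 0.0194), Gmnn, the inhibitor of Cdt1, at 0.45 (SE 0.113, adjusted p 0.0353), and the Pcna unloader Atad5 at 0.50 (SE 0.130, adjusted p 0.0435). The count was 1 without DW females 82 and 83, with Gmnn at 0.28 and Atad5 at 0.31. Ticrr read 2.24, 2.65, 2.63 and 1.81 in SW males and 3.64, 3.74, 3.93 and 4.67 in DW males, and 2.97, 2.16, 3.73 and 3.34 in SW females and 4.02, 4.42, 4.26 and 4.32 in DW females, with no overlap in either sex. Gmnn overlapped in males and not in females, with 3.42, 3.56, 3.23 and 4.31 in SW males and 4.03, 5.20, 4.30 and 4.17 in DW males, and 3.63, 4.04, 3.79 and 4.48 in SW females and 5.55, 5.02, 10.3 and 7.87 in DW females. Over the week under standard weaning 11 of the 44 fell in males and 4 in females, and under delayed weaning 4 and 1 fell, with 0 called higher in any of the 4. Genes called lower made up 4.97% and 4.23% of all genes under standard weaning in males and females, and 6.10% and 6.16% under delayed weaning. The delayed weaning count in females was below that share and the one in males not far from it. The counts of falls were 22, 9, 13 and 3 without DW females 82 and 83.

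Of 31 regulators of S phase entry, 5 rose with delayed weaning in the mean of both sexes, beside 1.19% of all genes. In that comparison 0 were lower and the median was 0.11. The count was 3 without DW females 82 and 83, when Ccne2 was at 0.44 and not called. Ccna2, the cyclin of S and G2 phase, changed by 1.06 (SE 0.134, adjusted p 0.0001), and Ccne2, a cyclin of S phase entry, by 0.62 (SE 0.127, adjusted p 0.00831). The repressors E2f7 and E2f8, which E2F factors themselves induce, changed by 0.53 (SE 0.115, adjusted p 0.0118) and 0.54 (SE 0.116, adjusted p 0.0118). Ccna2 read 13.3, 9.06, 10.0 and 7.08 in SW males and 23.6, 20.3, 22.1 and 26.2 in DW males, and 16.0, 12.2, 14.1 and 12.3 in SW females and 18.6, 23.7, 36.7 and 33.1 in DW females, with all DW animals above all SW animals in both sexes. Ccne2 read 5.55, 4.59, 4.21 and 3.91 in SW males and 7.55, 6.50, 8.23 and 9.28 in DW males, and 6.21, 5.88, 5.14 and 5.34 in SW females and 5.90, 7.45, 12.0 and 10.9 in DW females, where DW female 76 lay within the SW range. From p21 to p28, 8 of the 31 fell in SW males and 5 in SW females. In DW males 3 fell and 2 rose, and in DW females 2 fell and 0 rose. Genes called lower made up 4.97% of all genes in SW males, 4.23% in SW females, 6.10% in DW males and 6.16% in DW females. Genes called higher made up 8.86% in DW males and 5.95% in DW females. In DW animals the counts were not far from these shares. The counts of falls without DW females 82 and 83 were 11 and 9 in SW males and females and 9 and 3 in DW males and females.

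Markers of the cell types in the samples were measured beside the members, as 9 lists of 10 genes. T cell markers had 9 in the table, since Trbc2 was not among its genes. In the weaning comparisons within a sex, limma and edgeR called 0 genes of all 9 lists, and DESeq2 called 1 adipocyte gene in females. At an unadjusted p under 0.05 there were, in males, 1 adipocyte, 2 endothelial and 1 erythroid gene. In females there were 5 adipocyte, 2 progenitor, 8 mammary epithelial, 1 T cell, 2 macrophage, 3 endothelial and 4 skeletal muscle genes, and 0 for B cells and erythroid cells. The share of all genes at this unadjusted threshold is not given here, so these counts are not set against it. Mammary epithelium, which lies within this depot in females, had a summed value of 291 to 401 in SW females and 111 to 243 in DW females, with all 10 genes lower in DW animals and a median change of -0.95. Its sum in males was 2.03 to 48.1, with up to 6 of the 10 genes at 0 in a library. Skeletal muscle markers ranged from 4.81 to 7544 in sum over all libraries, with a median weaning change of -3.09 in females and -0.32 in males. Macrophage markers had a median change of 0.20 in males and 0.01 in females, endothelial markers 0.07 and -0.25, and adipocyte markers -0.03 and -0.04. The progenitor sum was 620 to 839 in DW females and 652 to 776 in DW males, against 644 to 788 and 629 to 742 after standard weaning. The B cell sum was 438 to 577 in DW animals and 355 to 709 in SW animals. With B cell, mammary and muscle scores as covariates, 6 members were called in the mean weaning comparison, 5 of them among the 9. The part of the other lists in the weaning result was not tested.

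Several of these lists moved with age. Macrophage markers summed to 330 to 536 at p21 and 601 to 929 at p28, and 6 of 10 rose in SW males, 5 in SW females, 8 in DW males and 6 in DW females. Genes called higher made up 6.90% of all genes in SW males, 7.39% in SW females, 8.86% in DW males and 5.95% in DW females. In the same order, genes called lower made up 4.97%, 4.23%, 6.10% and 6.16%. Erythroid markers summed to 580 to 2162 at p21 and 181 to 593 at p28. Of these, 5 fell in SW males, 4 in SW females, 5 in DW males and 8 in DW females, and without DW females 82 and 83 the female counts were 7 and 1. T cell markers fell in 3 of 9 genes in SW males and in DW males, and in 1 gene in DW females. Skeletal muscle markers rose in 9 of 10 genes in males under both conditions and in 0 in females. Mammary epithelial markers rose in 8 of 10 genes in SW females (median 1.69) and in 1 in DW females (median 0.70). Endothelial markers rose in 4 of 10 genes in SW males, 6 in DW males and 1 in each group of females, and 1 fell in DW females. Adipocyte markers rose in 3 genes in SW males and 2 in DW males, and 1 fell in SW males and 1 in SW females. Progenitor markers had 1 rise and 1 fall in every group but DW females, which had 2 rises and 1 fall, and 1 B cell gene rose in each group of females. The part of these lists in the fall of the replication genes with age was not tested, other than through the marker covariates above.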

How the data were processed

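RNA of 24 mice was extracted with a lipid tissue kit and made into poly(A) libraries, per the labels' protocols. The submitters' processing notes name fastp, HISAT2, featureCounts, DESeq2 1.38.3 and the build mm10, without their roles; settings such as strand are not given in the sources used here. The values the authors deposited are a signal: the reads of each gene, scaled by a single factor per library. All values (100%) were whole multiples of the smallest step within 0.01 reads, so whole reads were recovered. The table had 16208 rows, of which 90 repeated a gene and were left out. Gene starts in the table matched GENCODE vM21 (GRCm38) for 2.23% of 16095 genes, so none of its coordinates are printed, and promoters come from RefSeq. The authors' own fold changes and p-values were not used.

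Depth was 57600711 to 302145813 reads per library on all genes of the table. The smallest chi-square per degree of freedom over 36 replicate pairs was 77.11, so none was merged. Genes were kept by filterByExpr (minimum count 10) on recovered reads, which left 16005. Limma 3.58.1 (R 4.3.3) was fitted to log2(value + 1) with a variance trend and a coefficient for each of 6 groups (18 residual degrees of freedom). Since the file holds scaled values, count tests on recovered reads were alternatives. For weaning, edgeR called 29 genes in males, 71 in females and 299 in the mean of both sexes, where limma called 41, 204 and 353. In females 63 of edgeR's calls were higher and 8 lower after delayed weaning, against 74 and 130 of limma's. On simulated data for the male weaning comparison (200 of 16005 genes with a true log2 change of 1), 62% of the changed genes were called, and 2.4% of calls were false. The members' changes in that comparison were at most 0.80, and smaller changes were not simulated. The 62% therefore does not give the share that would be called at their size of change.

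The members, lists and tests were chosen with earlier results of these data known. Every animal's value is printed for the members called in a weaning comparison (the 4 smallest p-values where fewer than 4 were called), for the 4 called members with the smallest p-values in each age comparison, and for the member with the largest p. Of the other replication genes, the S phase entry regulators and the mitosis genes, up to 4 with the smallest p-values are named, plus Mki67 and Cdk1. Rfc4 in DW females and the Tk1, Rrm2 and Pole values at p21 are shown besides and were chosen after their values were seen. Samples were not paired, since groups share no animal numbers. Alternatives were edgeR 4.0.16 and DESeq2 1.42.0 on recovered reads, log2 CPM with TMM scaling (prior count 2), a pseudocount of 0.1, no low-value filter, fits of the compared groups alone, the run of animal numbers or 3 marker scores as covariates, no variance trend, and leaving out animals.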

Additional observations from a re-analysis of the deposited data

Results flagged for a closer look

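In groups of 4, an animal was singled out where its gap to the nearest other as a share of the group's range exceeded Dixon's 95% critical value. Of 114 groups examined 4 gave such an animal, where chance gives about 1 in 20, or 5.7. Lig1 was at 3.269 on the log2 scale in SW male 84, against 3.70 to 3.75 in the other SW males. Pole was at 4.184 in p21 male 53, against 3.58 to 3.65 in the other p21 males. Pold1 was at 2.866 in p21 female 30, against 3.46 to 3.56 in the other p21 females. The members took 0.08145% of reads in p21 male 38, against 0.0691% to 0.0707% in the other p21 males.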

How the results depend on the processing

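Counts of members called moved with the setting, and the cause was not tested. Besides edgeR for weaning, the number of all genes called under a changed setting is not given here. A shift in the members is therefore not set against a shift over all genes. In the weaning comparison of males the count of 0 became 4 with DESeq2, 1 with log2 CPM, 2 with a pseudocount of 0.1, 6 with only the compared groups, 1 with the run as covariate, 2 without a variance trend, 4 without DW females 82 and 83, and 0 to 1 on leaving out 1 animal. In females 0 became 1 with edgeR, 5 with DESeq2 and 0 to 11 on leaving out 1 animal. In the mean of both sexes 9 became 15 with DESeq2, 5 without DW females 82 and 83 and 6 to 15 on leaving out 1 animal. Under standard weaning the male count of 20 became 12 with only the compared groups, 6 with marker covariates, 10 without animals 53, 84 and 36 and 15 to 20 on leaving out 1 animal. The female count of 9 became 14 with only the compared groups, 2 with marker covariates, 16 without DW females 82 and 83 and 2 to 13 on leaving out 1 animal. Under delayed weaning the male count of 3 became 5 with DESeq2 and 1 with marker covariates (range 1 to 5), and the female count of 2 became 0 with only the compared groups (range 0 to 3). Without DW females 82 and 83 the female count stayed at 2 with 0 of them shared. For sex, 0 ranged from 0 to 1 after standard weaning; after delayed weaning it became 1 with edgeR, 3 with DESeq2 and 0 to 5, and the interaction of sex with age under delayed weaning became 1 with DESeq2. Pold1, at 0.00, reversed to -0.00304 with a pseudocount of 0.1 and to -0.064 without animals 53, 84 and 36, and ranged from -0.077 to 0.14 on leaving out 1 animal. Rrm2, Rrm1 and Clspn were called in all 27 alternatives of the mean weaning comparison; Mcm6 was lost in 16 and Prim1 in 18. No paired analysis was possible because groups share no animal numbers. Depth limits Orc1 and Gins1, which rested on as few as 33 and 5 reads.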
